A study of Mus musculus with 2 samples.

Results

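PD-1 and its ligands are 3 genes: Pdcd1, which encodes the inhibitory receptor PD-1, Cd274, which encodes the ligand PD-L1, and Pdcd1lg2, which encodes the ligand PD-L2. They were taken by symbol from the gene tables of the series, where they are 3 of 31053 genes. The rule used no measured value, but the set was chosen with earlier results of these data known. Their UMIs (unique molecular identifiers, 1 per captured RNA molecule) were summed over cell types gated by marker genes in each of the 2 libraries.

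The series holds single-cell RNA-seq of leukocytes from subcutaneous B16-F10 tumours, a transplanted mouse melanoma line, as 1 control library and 1 library from mice given an OX40 agonist. OX40, encoded by Tnfrsf4, is a costimulatory receptor of activated T cells. Hosts of both groups were female wild-type C57BL/6 mice of 10 weeks at implantation into the right flank. Tumours were dissociated, leukocytes enriched on Ficoll, and cells bearing CD45 sorted. The protocol in the labels took cells without DAPI, a dye that enters dead cells, whereas the design text writes DAPI-positive. Cells were captured with 10x Genomics 3′ v3 chemistry. The number of mice per library, the antibody's dose and schedule and what the control mice received are not given in the sources used here. Since each group is 1 library, no difference between groups has a replicate check and none was tested. All intervals below are 95% intervals that cover counting error only.

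PD-1 is induced on T cells by antigen receptor signalling and, once bound by a ligand, recruits the phosphatase SHP-2, which dampens receptor and CD28 signalling. PD-L1 is found on many cell types and is a known target of interferon-gamma acting through the kinases JAK1 and JAK2 and the factor IRF1. PD-L2 has a narrower range, best known from dendritic cells and macrophages, where interleukin-4 and STAT6 are among its inducers. Antibodies that block this axis are used to treat melanoma.

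The receptor gene lies apart from the ligand genes, which are neighbours on 1 strand. In mm10 (GENCODE M21), Pdcd1 (ENSMUSG00000026285) spans chr1:94038305-94052553 on the minus strand. Cd274 (ENSMUSG00000016496) spans chr19:29367455-29388095 and Pdcd1lg2 (ENSMUSG00000016498) spans chr19:29410919-29471161, both on the plus strand, with 22823 bases between them. The last 6412 bases of Pdcd1lg2 overlap the antisense gene A930007I19Rik, and no source used here says whether the counting used strand, so reads of the overlap may not be told apart. A930007I19Rik itself was listed at 1.75 CPM (counts per 1000000, UMIs of the gene relative to all UMIs of the gate) in control and 2.66 CPM in treated CD8 T cells, and at 11.1 and 8.74 CPM in phagocytes.

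The sequences before the start sites are shown because both ligands were lower together in several gates of the treated library. They are the RefSeq (GRCm38.p6) bases upstream of the start site, all 3 members were matched, and capitals mark matches to the motifs named after them. For Cd274 the run starts where an annotated untranslated region of the divergent gene Plgrkt ends. Plgrkt as a whole is annotated up to chr19:29367390 (GENCODE M21), so the first part of the run still lies within that gene.
Pdcd1, chr1:94052554-94052803, minus strand: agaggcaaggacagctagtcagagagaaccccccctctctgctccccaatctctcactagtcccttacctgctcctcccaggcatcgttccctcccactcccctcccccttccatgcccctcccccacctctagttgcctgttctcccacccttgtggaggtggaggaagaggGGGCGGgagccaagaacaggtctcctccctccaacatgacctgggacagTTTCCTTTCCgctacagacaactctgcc
Cd274, chr19:29367309-29367437, plus strand: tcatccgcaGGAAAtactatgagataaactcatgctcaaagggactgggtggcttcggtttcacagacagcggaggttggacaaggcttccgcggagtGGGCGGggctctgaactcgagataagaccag
Pdcd1lg2, chr19:29410669-29410918, plus strand: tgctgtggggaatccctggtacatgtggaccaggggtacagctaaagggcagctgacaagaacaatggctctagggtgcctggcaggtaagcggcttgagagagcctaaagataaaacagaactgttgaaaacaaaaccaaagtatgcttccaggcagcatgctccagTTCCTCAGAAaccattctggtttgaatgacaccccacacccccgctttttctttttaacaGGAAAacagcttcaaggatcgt
Over 250 bases before the start, both strands of each gene were searched for the motifs named here. The NFAT core GGAAA matched 2 times in Pdcd1, side by side, and 1 time in each ligand gene, and 55.6% of 32851 promoters held it. The GC box GGGCGG matched in Pdcd1 and Cd274, against 32.7% of promoters. A palindromic STAT6 site (TTC and GAA with 4 bases between them) matched 1 time in Pdcd1lg2 and in neither other gene, against 5.85% of promoters. The AP-1 motif TGANTCA and the interferon regulatory factor repeat (GAAA 2 times, with 2 bases between) had no match in these windows in any of the 3 genes, against 6.75% and 2.98% of promoters. These are matches of letters only.

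The deposited matrices held 7187 control and 8569 treated barcodes with 114026695 and 118059108 UMIs. After quality filters and doublet removal 5989 and 6986 cells were kept, with median depths of 9423 and 7746 UMIs, and 91.8% and 92.6% of them fell in a gate. 18 barcodes occurred in both libraries, 12 of them among kept cells. Of the 18 gates, 14 had at least 50 cells in each library and are compared, whereas neutrophils, B cells, plasmacytoid dendritic cells and cDC1 are given as levels only. The gates' own markers were detected where they define them: the lowest share of cells with a UMI among the 5 T cell markers was 97.1%, and among the 5 melanoma markers it was 68.2%, for Tyr. Cells of the melanoma gate passed a CD45 sort although their level of Ptprc, which encodes CD45, was 9.95 CPM in control and 3.43 CPM in treated cells, against 349 and 338 CPM in phagocytes.

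Pdcd1 was a T cell transcript in both libraries. T cells held 93.9% of the control library's Pdcd1 UMIs in kept cells and 94.6% of the treated library's, and CD8 T cells alone held 87.9% and 84.2%. Among the control gates CD8 T cells had the highest level, 387 CPM (379 to 395), followed by other T cells at 255 CPM (231 to 282). Other T cells had no CD8, CD4 or Foxp3 call, or were CD8-positive with a Foxp3, Cd4 or Cd40lg UMI. CD4 T cells at 136 CPM (101 to 178) and regulatory T cells at 133 CPM (114 to 155) came next and did not differ beyond their intervals. The CD4 gate takes CD8-negative T cells with a Cd4 or Cd40lg UMI and no Foxp3 UMI. Regulatory T cells whose Foxp3 was not captured may therefore be in it. In the treated library CD8 T cells at 413 CPM (403 to 424) were followed by CD4 T cells at 259 CPM (216 to 307). Other T cells at 239 CPM (212 to 269) and regulatory T cells at 190 CPM (171 to 212) came after them. Here the intervals of CD4 T cells and other T cells overlapped.

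**Figure D1:**
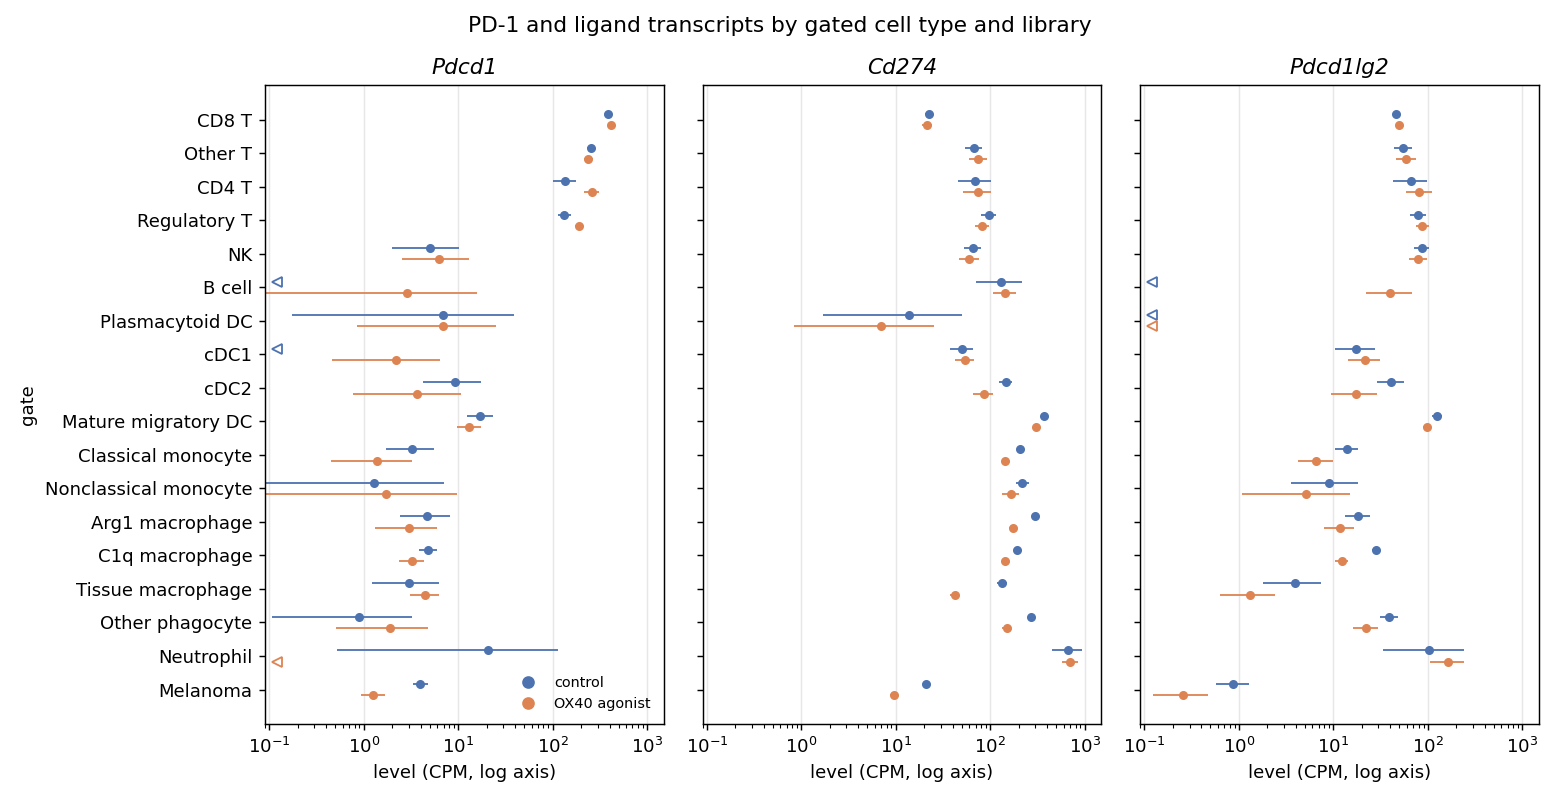
Levels of the 3 genes (CPM, log axis) by gate in the control (blue) and treated (orange) library, with exact 95% Poisson intervals. Open triangles at the left edge mark gates with 0 UMIs. Pdcd1 is highest in T cells, Cd274 in neutrophils and mature dendritic cells, and Pdcd1lg2 is within 45.5 to 163 CPM in T cells, NK cells, mature dendritic cells and neutrophils.

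In CD8 T cells, 8865 control and 6063 treated UMIs gave a treated to control ratio of 1.07 (1.03 to 1.10). The level was thus nearly the same in both libraries. Share measures were also close: 88.2% of control and 87.1% of treated CD8 T cells had a Pdcd1 UMI, at median depths of 12305 and 10005 UMIs. After thinning every cell to 1000 UMIs, which leaves out 1 control cell, the shares were 30.6% (28.3 to 33.0) and 33.3% (30.6 to 36.0). In classical monocytes the shares were 2.21% and 0.817% unthinned, at median depths of 7356.5 and 5829.5 UMIs. Thinned, they were 0.186% and 0%. The thinned value of 0% is 0 of 608 cells, which allows a share of up to 0.493%.

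CD4 T cells and regulatory T cells had more Pdcd1 in the treated library. For CD4 T cells, 51 UMIs in 53 control cells (136 CPM) stood against 130 UMIs in 96 treated cells (259 CPM), a ratio of 1.91 (1.37 to 2.69). Called higher or lower here means a CPM ratio of at least 1.5 in either direction, among genes with at least 10 CPM and 30 UMIs in the higher library. By that rule Pdcd1 was called higher in this gate, but so were 10.6% of the 2442 genes that could be called there. In regulatory T cells the ratio was 1.43 (1.18 to 1.73), from 168 and 338 UMIs, and was not past 1.5. Other T cells had a ratio of 0.937 (0.801 to 1.09), an interval that includes 1. Of the 14 compared gates Pdcd1 passed the filter on low values in the T cell gates and the mature dendritic cells only, 5 in all, and was called higher in 1 and lower in 0.

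**Figure D2:**
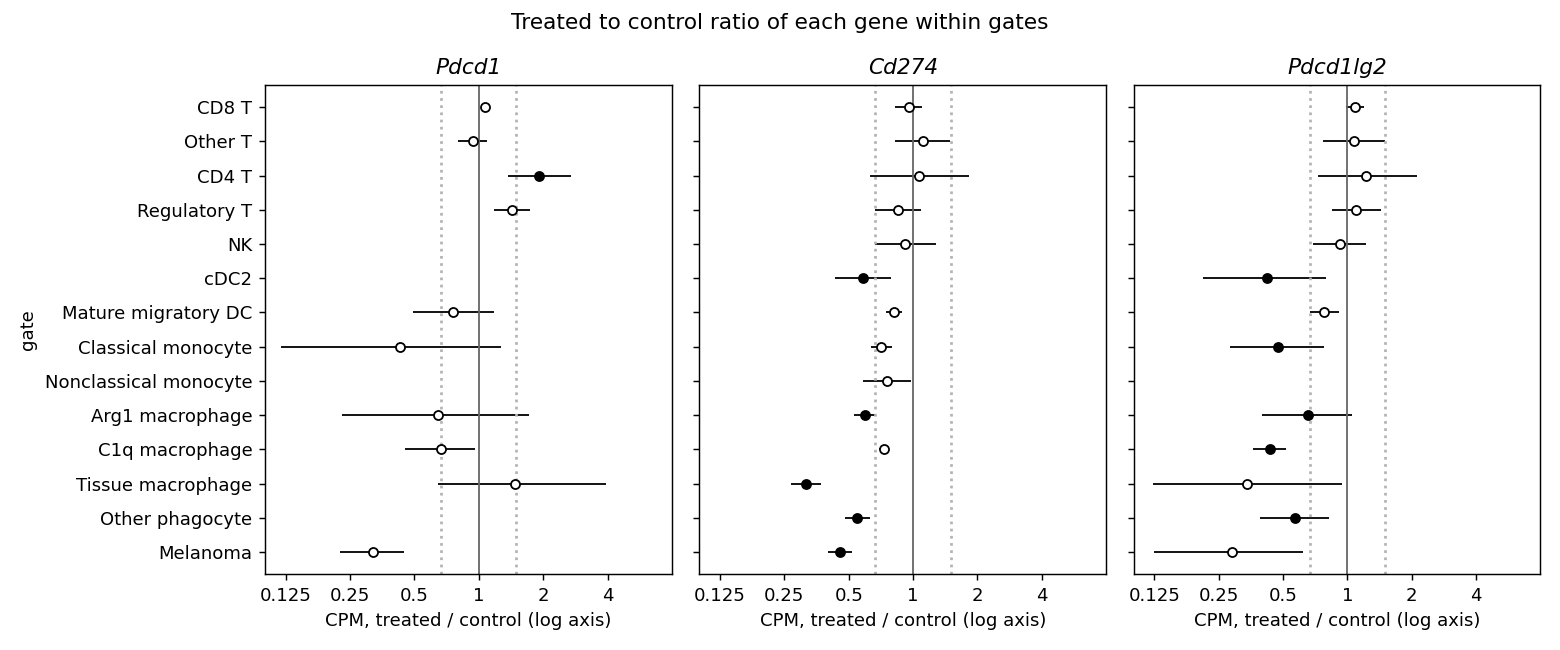
Ratio of CPM, treated over control (log axis), for each gene and gate with at least 50 cells per library and at least 10 UMIs in the higher library, with exact 95% intervals. Filled points are called, dotted lines mark the 1.5-fold limits, and the ligands lie left of 1 in the dendritic cell, phagocyte and melanoma gates, while Pdcd1 in CD8 T cells is at 1.07.

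CD8 T cells were split by marker UMIs, in this order, into cells with granzymes D to G, cycling cells, Tim-3 (Havcr2) positive cells, Tcf7-positive cells without Tim-3, and Gzmk-positive cells without Tim-3. Tcf7 encodes TCF-1, the factor of stem-like exhausted T cells, and Tim-3 marks their terminal state. Tcf7-positive cells had the lowest Pdcd1 level in both libraries, 184 CPM (148 to 225) in 80 control cells and 151 CPM (112 to 199) in 59 treated cells. The other named states lay between 355 and 436 CPM in the control library and between 362 and 522 CPM in the treated one. Cells in none of these states, 149 control and 154 treated cells, had 312 and 342 CPM. Tim-3-positive cells out of cycle had 427 and 452 CPM, and cycling cells 390 and 413 CPM. Gzmk-positive cells had the highest level, 436 CPM (393 to 484) in control and 522 CPM (473 to 574) in treated cells, a ratio of 1.20 (1.04 to 1.38). Their interval overlapped that of Tim-3-positive cells in both libraries (409 to 444 in control and 432 to 474 in treated cells). Cells with granzymes D to G were 11.3% of control and 6.71% of treated CD8 T cells, with Pdcd1 at 355 and 362 CPM. The state cuts are ranges of marker counts and not separate cell types.

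**Figure D3:**
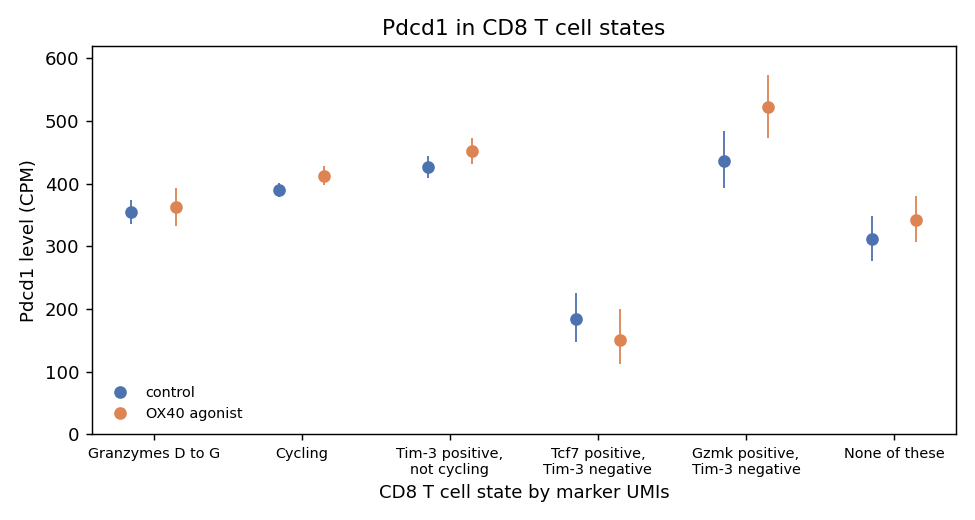
Pdcd1 level (CPM, from 0) in CD8 T cell states of the control (blue) and treated (orange) library, with exact 95% Poisson intervals. Tcf7-positive cells without Tim-3 lie lowest, at 184 and 151 CPM, and Gzmk-positive cells highest, at 436 and 522 CPM.

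Outside T cells Pdcd1 was low, and its ratio to T cell marker UMIs differed between gates. In CD8 T cells there were 5.98 control and 6.59 treated Pdcd1 UMIs for every 100 UMIs of the 5 T cell markers Cd3e, Cd3d, Cd3g, Trac and Trbc2. Phagocytes had 4.10 and 3.17 CPM of Pdcd1, which is 4.27 and 4.58 per 100 T cell marker UMIs, and all 5 markers were detected there. Melanoma cells had 3.99 and 1.27 CPM, which is 6.67 and 6.08 per 100, and a ratio of 0.319 (0.225 to 0.446) below the CPM limit for a call. Their summed T cell marker level was 59.7 CPM in control and 20.9 CPM in treated cells, so Pdcd1 and T cell markers were lower together in that gate, and the part of T cell RNA in it was not tested. Mature migratory dendritic cells stood apart with 17.2 CPM (12.4 to 23.2) and 13.1 CPM (9.63 to 17.3), or 33.1 and 52.7 per 100 T cell marker UMIs. Those UMIs, 42 and 48, came from 28 of 248 control and 33 of 454 treated cells. NK cells, which had 5.00 and 6.26 CPM from 7 UMIs each, were at 1.39 and 2.00 per 100. There 1 of the 5 markers gave 291 of the summed 361 CPM in control and 257 of 313 CPM in treated cells. The sum may therefore not stand for T cell RNA in NK cells.

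Genes known to act on or with PD-1 in T cells were also nearly level in CD8 T cells. Of 15 listed regulators of Pdcd1, 11 passed the filter and 0 were called, with a median log2 ratio of 0.02 beside -0.03 over all 6974 genes that passed. Calls over all genes were 0.358% higher and 0.531% lower in that gate. Nr4a2, an orphan nuclear receptor induced by receptor signalling, was at 198 and 237 CPM, and Tox, a factor of exhausted T cells, at 156 and 167 CPM. Of 11 other inhibitory receptors 9 passed and 0 were called, with a median of -0.08. Cd160 was at 68.6 and 77.6 CPM and Cd244a, which encodes 2B4, at 29.0 and 24.5 CPM. Of 12 signalling and binding partners, 11 passed and 1 was called lower: Cd80, a B7 ligand that also binds PD-L1, at 20.7 and 12.1 CPM. Sh2d1a, the adaptor SAP, was at 150 and 177 CPM without being called.

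In regulatory T cells, 1 of the 10 regulators that passed was called higher, against 4.88% of all genes there. It was Irf4, a receptor-induced transcription factor, at 12.7 and 22.0 CPM, a ratio of 1.73 with an interval (0.945 to 3.32) that includes 1. Nr4a2 was at 51.6 and 77.1 CPM, a ratio just under the limit for a call, with an interval of 1.11 to 2.04. Ctla4, the inhibitory receptor typical of these cells, was at 2141 and 1691 CPM, and 0 of 7 inhibitory receptors that passed were called. In CD4 T cells, where 10.6% of all genes were called higher and 8.56% lower, 2 of 7 regulators were called higher and 2 lower. Nr4a1, an orphan nuclear receptor, was at 74.4 and 157 CPM, whereas Nr4a2 was at 218 and 125 CPM. Of 5 inhibitory receptors 2 were called higher, Lag3 at 199 and 318 CPM and Havcr2 at 23.9 and 69.6 CPM, and 1 lower, Klrg1 at 79.8 and 33.8 CPM. Ctla4 was at 925 and 1265 CPM in the CD4 gate without being called. The part of regulatory T cells without a Foxp3 UMI in that gate was not tested.

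Cd274 was detected in all 18 gates of both libraries and was lower in the treated library in 12 of the 14 compared gates. Among the gates with at least 50 cells in each library, mature migratory dendritic cells had the highest level. They are the CCR7-positive dendritic cells that carry antigen to lymph nodes. Their level was 369 CPM (346 to 394) in control and 301 CPM (284 to 320) in treated cells, a ratio of 0.816 (0.746 to 0.891) that was not called. A Cd274 UMI was seen in 89.1% and 78.4% of them, at median depths of 8826.5 and 7659 UMIs, and in 32.4% (26.6 to 38.6) and 25.4% (21.5 to 29.7) after thinning. With every cell thinned, and so given equal weight, the log2 ratio was -0.59 in place of -0.29. Arg1 macrophages followed in the control library with 294 CPM (274 to 316), then other phagocytes with 272 CPM (251 to 295), an overlapping pair. Nonclassical monocytes at 219 CPM, classical monocytes at 204 CPM and C1q macrophages at 194 CPM also overlapped with their neighbours. At the low end were CD8 T cells with 22.5 CPM and melanoma cells with 20.8 CPM, whose intervals overlapped as well. Neutrophils had a higher level than any of these, 657 CPM (450 to 928) and 697 CPM (571 to 842), but from 32 UMIs in 30 control and 107 UMIs in 103 treated cells.

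All 6 phagocyte gates and the melanoma gate had less Cd274 in the treated library, by different amounts. Tissue macrophages, marked by Fcrls, Folr2 and Gas6, had 133 CPM (119 to 149) in 122 control cells and 42.1 CPM (37.6 to 47.0) in 459 treated cells. The ratio was 0.316 (0.269 to 0.370). They were also a larger share of the treated library, 6.57% of kept cells against 2.04%. Arg1 macrophages had 294 and 176 CPM, a ratio of 0.596 (0.530 to 0.670), and other phagocytes 272 and 150 CPM, a ratio of 0.550 (0.478 to 0.631). Those 3 gates were called lower, as were 5.07%, 3.9% and 4.83% of all genes tested in them. Classical monocytes at 204 and 145 CPM, nonclassical monocytes at 219 and 166 CPM and C1q macrophages at 194 and 142 CPM had ratios of 0.710, 0.756 and 0.734, none of them called. Every one of these intervals lay below 1.

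Over all mononuclear phagocytes together Cd274 was at 205 CPM (200 to 211) in control and 121 CPM (117 to 125) in treated cells, a ratio of 0.591 (0.567 to 0.615). In this pooled gate 1.46% of 7036 genes were called lower. Shares of cells with a Cd274 UMI were 67.6% and 49.0%, at median depths of 9108.5 and 7696 UMIs. Thinned to 1000 UMIs they were 18.1% (16.6 to 19.7) and 12.8% (11.6 to 14.0). Plasmacytoid dendritic cells had the lowest Cd274 values, 13.9 and 6.99 CPM, from only 2 UMIs per library, too few to rank them. Those UMIs came from 2 of 17 control and 2 of 46 treated cells, at median depths of 8503 and 6181 UMIs. When thinned, 0% of either had a UMI. Phagocytes held 63.9% of the control library's Cd274 UMIs and 55.1% of the treated library's, and mature dendritic cells 9.28% and 16.4%.

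Melanoma cells had low Cd274 with a large relative difference. Their level was 20.8 CPM (19.3 to 22.5), from 643 UMIs in 446 control cells, and 9.52 CPM (8.58 to 10.5), from 375 UMIs in 608 treated cells. The ratio was 0.457 (0.401 to 0.520), in a gate where 1.9% of 7824 genes were called lower and 0.153% higher. A UMI was seen in 46.2% of control and 29.1% of treated melanoma cells at median depths of 70982 and 65350 UMIs, and thinned shares were only 2.13% and 1.00%. Markers of phagocytes were present in that gate, 7 of 7 detected, at a summed 61.2 CPM in control and 47.4 CPM in treated cells. Cd274 stood at 34.1 and 20.1 UMIs for every 100 of those marker UMIs, against 2.16 and 1.39 in the phagocytes themselves. T cell markers were lower in the same cells (59.7 and 20.9 CPM), and their part in the result was not tested.

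The remaining gates differed little or are thinly filled. cDC2, the conventional dendritic cells marked by Cd209a and Clec10a, had 146 CPM (122 to 171) in 85 control cells and 85.2 CPM (66.3 to 108) in 94 treated cells, a ratio of 0.586 (0.433 to 0.786). This was called lower, with 11.9% of all genes in that gate, which is narrow: an unsupervised cluster led by Cd209a held 226 control and 287 treated cells. T cell markers in the gate were at a summed 114 CPM in control, 5 of 5 detected, and 14.8 CPM in treated cells, 4 of 5 detected, and their part in the ligand values of cDC2 was not tested. CD8 T cells had 22.5 and 21.5 CPM, regulatory T cells 96.0 and 81.6 CPM, and NK cells 65.0 and 59.9 CPM, each with an interval of the ratio that includes 1. Cd274 passed the filter in all 14 compared gates. It was called lower in 5 and higher in 0 of them, and 9 intervals of the ratio lay wholly below 1. Among all genes, the share called lower in the gates where Cd274 was not called was 0.531% in CD8 T cells, 4.14% in regulatory T cells, 8.56% in CD4 T cells, 6.3% in other T cells, 5.06% in NK cells, 4.37% in mature dendritic cells, 2.18% in classical monocytes, 6.42% in nonclassical monocytes and 1.23% in C1q macrophages. Shares called higher, against which the count of 0 for both ligands stands, were 4.14% in other T cells, 3.06% in NK cells, 2.26% in mature dendritic cells, 2.65% in cDC2, 1.59% in classical and 4.08% in nonclassical monocytes. In Arg1, C1q, tissue macrophages and other phagocytes they were 4.67%, 1.01%, 4.07% and 5.59%, and in pooled phagocytes 1.34%. cDC1 had 50.6 and 54.1 CPM, and B cells, 15 and 50 in number, 130 and 144 CPM.

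Pdcd1lg2 was divided over more cell types. Mature dendritic cells had the highest level among the compared gates, 125 CPM (112 to 140) in control and 97.7 CPM (87.9 to 108) in treated cells, a ratio of 0.779 (0.667 to 0.910). A UMI was seen in 48.0% and 37.4% of them, and after thinning in 13.0% (9.03 to 17.8) and 7.08% (4.89 to 9.85), where the log2 ratio was -0.98 in place of -0.33. NK cells at 86.4 and 79.6 CPM, regulatory T cells at 79.3 and 87.3 CPM, CD4 T cells at 66.5 and 81.6 CPM and other T cells at 55.1 and 59.2 CPM came next, with overlapping intervals. CD8 T cells had 45.5 CPM (42.8 to 48.4) and 49.4 CPM (45.9 to 53.1), a ratio of 1.08 (0.986 to 1.19). By number of UMIs they were the main source, since T cells of all gates held 46.5% of the control library's Pdcd1lg2 UMIs and 51.0% of the treated library's, phagocytes 26.9% and 14.7%, and mature dendritic cells 11.4% and 18.5%. Neutrophils had 103 and 163 CPM from only 5 and 25 UMIs.

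The T and NK cell signal was set beside markers of dendritic cells. Among 6 mature dendritic cell markers (the list without Ccr7 and Tbc1d4, which T cells also express), 5 were detected in CD8 T cells, at a summed 13.3 CPM in control and 16.2 CPM in treated cells. That gave 343 and 305 Pdcd1lg2 UMIs for every 100 marker UMIs, against 2.29 and 1.82 in mature dendritic cells. At equal depth 4.62% and 4.31% of CD8 T cells and 8.73% and 8.12% of NK cells had a Pdcd1lg2 UMI, where unthinned shares were 42.7%, 40.2%, 31.7% and 22.9%. NK cells had median depths of 4775.5 and 3663 UMIs. Melanoma cells had 0 of 422 and 0 of 597 thinned, which allows up to 0.711% and 0.503%, and 0.875 and 0.254 CPM unthinned. Plasmacytoid dendritic cells had no Pdcd1lg2 UMI in 17 control and 46 treated cells, which allows up to 17.6% and 6.52% of cells. At equal depth the shares in CD8 T and NK cells were above the limits for melanoma cells in both libraries. Melanoma cells had median depths of 70982 and 65350 UMIs, so thinning to 1000 UMIs kept a much smaller part of each of them. Their limits therefore cannot serve as a floor for RNA from other cells, and its part in the T and NK cell shares was not tested. The few plasmacytoid dendritic cells set no limit low enough to compare.

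Pdcd1lg2 was also lower in treated phagocytes. Pooled phagocytes had 23.9 CPM (22.2 to 25.7) from 723 UMIs in control and 9.36 CPM (8.30 to 10.5) from 286 UMIs in treated cells, a ratio of 0.392 (0.340 to 0.450). On the log2 scale the pooled value was -0.81, against -0.38 with each cell thinned and -0.51 as a mean over cells. C1q macrophages, which held 518 and 171 of those UMIs, had 28.2 and 12.2 CPM, a ratio of 0.433 (0.362 to 0.516), where 1.23% of 7064 genes were called lower. Classical monocytes had 13.9 and 6.61 CPM, a ratio of 0.475 (0.282 to 0.780), with 2.18% of genes called lower there. Other phagocytes at 38.9 and 22.2 CPM, Arg1 macrophages at 18.1 and 11.8 CPM and cDC2 at 41.0 and 17.3 CPM were called lower too, but the interval for Arg1 macrophages (0.399 to 1.05) includes 1. In other phagocytes the direction was not the same under every setting: the log2 ratio was -0.60, but 0.27 with each cell thinned and 0.0326 as a mean over cells. Pdcd1lg2 passed the filter in 11 of the 14 gates and was called lower in 5 and higher in 0 of them, and tissue macrophages, nonclassical monocytes and melanoma cells did not pass. Thinned, 36 of 2399 control and 27 of 2933 treated phagocytes had a UMI, with overlapping intervals of 1.05 to 2.07% and 0.608 to 1.34%. Tissue macrophages had 3.89 and 1.31 CPM, the lowest of the phagocyte gates, and were a larger share of the treated pool. Their part in the pooled ratio was not tested.

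At full depth both ligands were often seen in the same mature dendritic cell. Whether this was more often than their separate shares give was not tested. A UMI of each was seen in 117 of 248 control cells, or 47.2% (40.8 to 53.6), and in 155 of 454 treated cells, or 34.1% (29.8 to 38.7). After thinning to 1000 UMIs the counts were 10 of 247 and 12 of 452, or 4.05% (1.96 to 7.32) and 2.65% (1.38 to 4.59), whose intervals overlap. In cDC2 the unthinned counts were 19 of 85 and 8 of 94. The median mature dendritic cell held 3 Cd274 UMIs in control and 2 in the treated library.

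Listed interferon-gamma targets were lower in the gates where Cd274 was. The list holds 19 genes known to be induced by interferon-gamma, among them guanylate-binding proteins, immunoproteasome subunits and MHC class I genes. In melanoma cells 16 passed the filter and 15 were called lower, with a median log2 ratio of -1.24 beside 0.03 over all genes that passed. Igtp, an interferon-induced GTPase, was at 156 and 46.1 CPM, and Psmb9, an immunoproteasome subunit, at 114 and 34.8 CPM. The 1 target that passed without being called, named after its values were seen, was Cxcl10, at 176 and 145 CPM. T cell markers and Ptprc were also lower in the treated melanoma gate, as given above, and Ifng was at 4.37 and 0.609 CPM there. Their part in these values was not tested. In tissue macrophages 16 of 17 were called lower, with a median of -1.34 beside 0.02, and the chemokine gene Cxcl9 was at 827 and 111 CPM.

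Pooled phagocytes showed the same direction with smaller values. There 12 of 18 targets were called lower and 0 higher, with a median of -0.66 beside 0.01 over all genes. Gbp4, a guanylate-binding protein, was at 96.9 and 35.2 CPM, and Gbp2 at 485 and 264 CPM. Tissue macrophages were a larger share of the treated pool here too, and their part in these values was not tested. In C1q macrophages 9 of 18 were called lower, median -0.54, and in mature dendritic cells 5 of 18, median -0.25, where 4.37% of all genes were called lower. CD8 T cells had 1 of 16 called lower, Cxcl9, and a median of -0.08, so that neither the list nor Cd274, at a log2 ratio of -0.05, was far from 0 there. The log2 ratio of Cd274 itself was -1.46 in tissue macrophages. In melanoma cells, where its level is low, it was -0.66 with 10 CPM added and -1.05 with 1 CPM added, so its place relative to the more abundant targets depends on that choice.

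**Figure D4:**
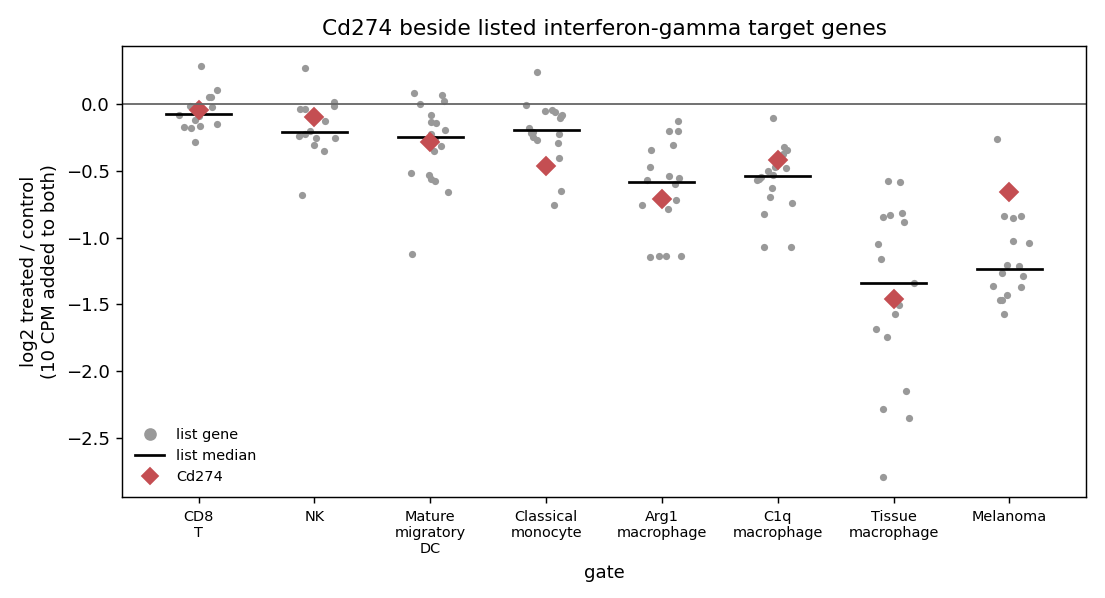
Log2 of treated over control CPM (10 CPM added to both) for the listed interferon-gamma target genes that passed the filter (grey), their median (bar) and Cd274 (red diamond) in 8 gates; sideways spread is only for legibility. Medians run from -0.08 in CD8 T cells to -1.34 in tissue macrophages.

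Among the listed genes of the interferon-gamma route, the transcription factor genes Irf1, at 59.3 and 25.4 CPM, and Irf9, at 15.7 and 7.72 CPM, were called lower in melanoma cells. In pooled phagocytes Irf1 was at 185 and 127 CPM, not past the limit. Mature dendritic cells had 0 of the 12 genes of the route called. Ifng, which encodes interferon-gamma, was at 573 and 545 CPM in CD8 T cells, a ratio of 0.952 (0.926 to 0.979), at 199 and 181 CPM in NK cells, and at 93.1 and 354 CPM in CD4 T cells. Listed NF-kB, hypoxia and other regulators of Cd274 had 0 of 8 called in melanoma cells and 0 of 8 in pooled phagocytes, with medians of 0.02 and -0.05. The interleukin-4 route to Pdcd1lg2 had 0 of 7 called in pooled phagocytes, median -0.20, and 1 of 8 in mature dendritic cells, Irf4, at 16.8 and 7.89 CPM. Of 10 PD-L1 protein handling genes, such as the stabiliser Cmtm6, 8 passed and 0 were called in either melanoma cells or pooled phagocytes, with medians of 0.13 and 0.07. Of the B7 family ligands 0 of 3 were called in melanoma cells and 0 of 5 in pooled phagocytes. Other genes near the ligand genes on chromosome 19 had 0 of 6 called in pooled phagocytes and 1 of 4 in melanoma cells, Insl6, at 14.4 and 9.12 CPM.

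In melanoma cells and C1q macrophages, cells with more target UMIs had more Cd274. Cells of a gate, both libraries together, were divided into 4 groups at the quartiles of their summed interferon-gamma target UMIs per 10000, a split added after the values above were seen, which cuts a continuous range. Abundant genes weigh most in this sum, such as B2m at 1933 CPM and H2-D1 at 691 CPM in control melanoma cells. In melanoma cells Cd274 was at 4.05 control and 4.01 treated CPM in the lowest group, 4.79 and 7.33 CPM in the second, 13.7 and 12.9 CPM in the third and 36.3 and 29.3 CPM in the highest. The ratio in the highest group was 0.807 (0.663 to 0.977), below 1, and its intervals in the 3 other groups included 1. The libraries also differed in the spread of cells over the groups: 41.5% of control and 13.0% of treated melanoma cells were in the highest group, and 5.61% and 39.3% in the lowest, the former being 25 cells.

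In C1q macrophages the Cd274 level was 107 and 81.1 CPM in the lowest group and 158 and 117 CPM in the second, with intervals of the ratio below 1, and 189 and 181 CPM in the third and 266 and 264 CPM in the highest, with intervals of the ratio that included 1. Pdcd1lg2 was lower in treated C1q macrophages in the highest group, at 45.8 CPM (40.3 to 51.8) and 28.9 CPM (22.5 to 36.5), and in the second and the third, but had a ratio of 1.07 (0.523 to 2.34) in the lowest. In Arg1 macrophages Cd274 was at 221 and 103 CPM in the lowest group, a ratio of 0.463 (0.347 to 0.618). In the third group it was at 310 and 184 CPM, a ratio of 0.593 (0.468 to 0.748), and in the second and the highest the interval of the ratio included 1. Mature dendritic cells had 475 and 371 CPM in the highest group and 297 and 284 CPM in the lowest, ratios of 0.782 (0.664 to 0.919) and 0.958 (0.784 to 1.17). Tissue macrophages had a lower level in the treated library in the highest group too, at 194 CPM (172 to 219) in 78 control cells and 97.8 CPM (76.5 to 123) in 68 treated cells. Their lowest groups held only 3 and 14 control cells.

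**Figure D5:**
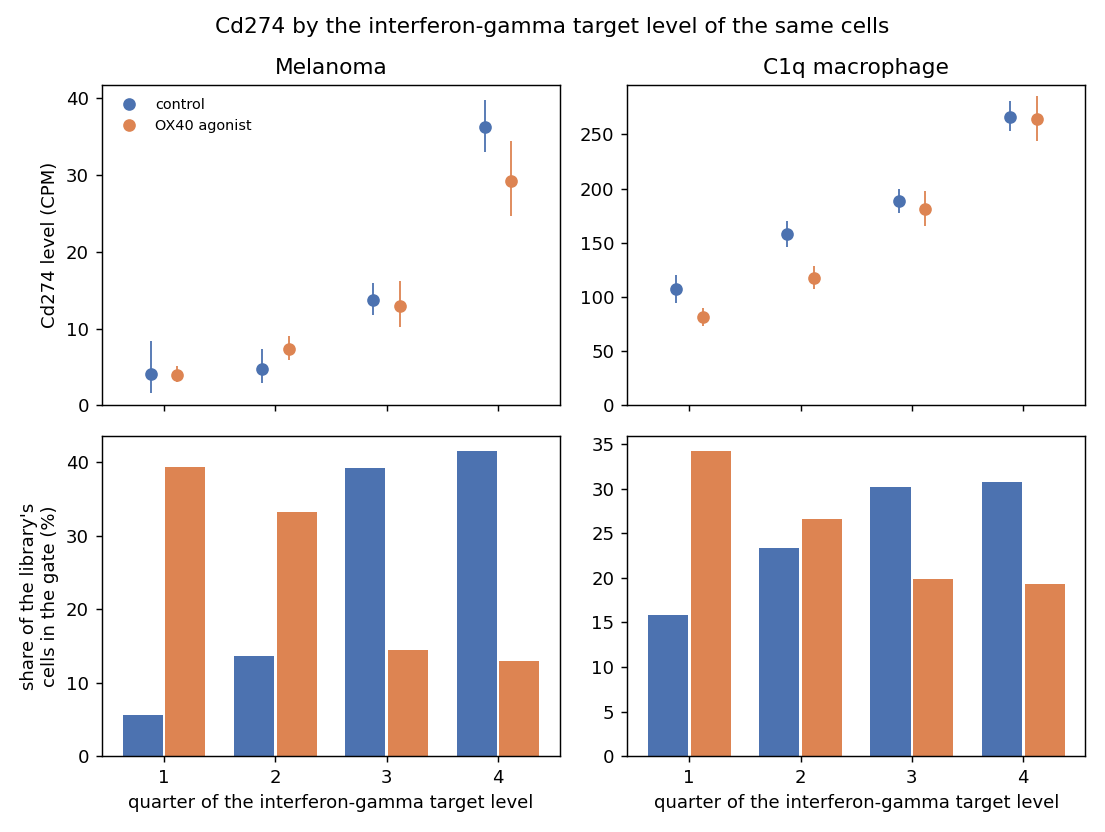
Top, Cd274 level (CPM, from 0, exact 95% Poisson intervals) in melanoma cells and C1q macrophages by 4 groups of their interferon-gamma target level, control in blue and treated in orange. Bottom, the share of each library's cells of the gate in each group; 41.5% of control and 13.0% of treated melanoma cells are in the highest.

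Across the 14 compared gates in both libraries, 28 values a gene that share libraries and depth, the 5418 genes reaching 50 CPM in any gate were ranked by the Pearson correlation of log2(CPM + 10) with each member. Most like Pdcd1 were Cxcr6, a chemokine receptor of resident T cells, at 0.98, and Cd3g, Themis, Cd3d and Cd3e, all T cell genes, at 0.97. Most like Cd274 were Rnf19b at 0.89, Pde4b, a phosphodiesterase, at 0.89, and Mvp, Stxbp3 and Gdap10 at 0.88. Most like Pdcd1lg2 were Birc2 at 0.92, H2-Q6 at 0.91, Hnrnph3 and Zeb1 at 0.89 and H2-Q7 at 0.89, where the H2-Q genes have near-identical relatives whose reads may be split. These are descriptions of the pattern over cell types.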

How the data were processed

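Single-cell RNA-seq libraries from 1 control and 1 OX40 agonist group were used as the deposited matrices of UMI counts per gene and cell barcode. The authors made these counts with Cell Ranger 3.1.0 (the name and the build, mm10, per the submitters' processing notes, the version per the file headers). No source used here says whether counting used strand.

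Barcodes with at least 500 UMIs, 200 genes and at most 10% mitochondrial UMIs were kept, and the highest doublet scores, 0.8% per 1000 cells, were removed (a score from simulated doublets, 2 per cell). Cells were gated by marker genes. Gate thresholds were set after looking at the markers' distributions, not at the 3 members. Counts were summed per gate and divided by the gate's total to give CPM. Log2 ratios add 10 CPM. CPM intervals are exact Poisson, shares Clopper-Pearson, and ratios exact conditional binomial, all at 95%. With 1 library per group no test across samples was possible, so a gene was called by size: at least 1.5-fold, with at least 10 CPM and 30 UMIs in the higher library. Gates with fewer than 50 cells in either library got no ratio. UMIs are counted molecules, but cells of 1 library are not replicates.

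The members and the 10 gene lists (108 of 109 genes in the files) were chosen with earlier results of these data known. The 3 members are given in every gate. List genes are named as up to 4 with the largest absolute log2 ratio per list, and likeness as the 5 highest Pearson correlations. The CD4 T cell genes, and others marked as such, were named after their values were seen, as was the split by interferon-gamma targets, whose ratios within groups were added later. Steps used Python 3.11.15, numpy 2.4.6, scipy 1.17.1, pandas 2.3.3, scikit-learn 1.9.0 and leidenalg 0.10.2. The calls were tried on simulated counts for CD8 T cells, pooled phagocytes, mature dendritic cells and melanoma cells only. That simulation held counting error alone, so it cannot speak to the spread between libraries or to the small gates. Some results of the interferon-gamma route list and of the motif search are not reported here.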

Additional observations from a re-analysis of the deposited data

Results flagged for a closer look

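Cells outside the compared gates also held UMIs of the members. In cells that passed no gate, 286 control and 316 treated cells, Pdcd1 was at 11.6 and 4.32 CPM. Cd274 was at 206 and 162 CPM in them, and Pdcd1lg2 at 57.0 and 37.4 CPM. In cells that passed the gates of more than 1 lineage, 205 and 203 in number, Pdcd1 was at 71.5 and 68.8 CPM. Cd274 was at 124 and 104 CPM in those cells, and Pdcd1lg2 at 23.8 and 20.3 CPM. Of the cells that passed no gate, 219 control and 223 treated cells lay near a gate threshold. The source of the UMIs in both groups of cells was not tested.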

How the results depend on the processing

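Of 404 alternative values of 43 log2 ratios, 354 stayed within the counting interval of the value given above, 46 moved further and 4 reversed. Thinning each cell to 1000 UMIs gave 0.20 for Pdcd1 in CD8 T cells (0.09 otherwise). For Cd274 it gave -0.59 in mature dendritic cells (-0.29 otherwise), -0.75 in melanoma cells (-0.66) and -0.57 in pooled phagocytes (-0.71). For Pdcd1lg2 it gave -0.98 in mature dendritic cells (-0.33) and -0.38 in pooled phagocytes (-0.81). A mean over cells gave -0.44 for Cd274 in mature dendritic cells, -0.64 for Cd274 in pooled phagocytes and -0.51 for Pdcd1lg2 there. A pseudocount of 1 CPM gave -1.05 for Cd274 in melanoma cells and -1.26 for Pdcd1lg2 in pooled phagocytes. Reversals were Pdcd1 in C1q macrophages, at 0.0802 without doublet removal and 0.20 thinned (-0.17 otherwise), and Pdcd1lg2 in other phagocytes, at 0.27 thinned and 0.0326 as a mean over cells (-0.60 otherwise). The cause was not tested. No paired analysis was possible because each group is 1 library, and for the same reason no library could be left out. Depth limits low levels: Pdcd1 outside T cells, and Pdcd1lg2 in small gates, rest on few UMIs.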
